A study of Mus musculus with 2 samples.

Results

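The alpha- and beta-globin clusters encode the protein chains of hemoglobin. Their 10 mouse genes, Hba-a1, Hba-a2, Hbb-bs, Hbb-bt, Hbb-bh1, Hbb-bh2, Hbb-y, Hba-x, Hbq1a and Hbq1b, were taken by name from the 43346 Ensembl genes of the deposited gene tables, of which 21461 were nuclear protein-coding genes. All 10 were found, whatever their level. The libraries were made from total RNA of G1E-ER4, an immortalized mouse erythroid line labelled C57BL/6J. Its parent line lacks Gata1, and a GATA1 that responds to estradiol was put back. The cells had received 10 nM 17beta-estradiol for 24 h, which starts their erythroid differentiation, and 2 biological replicates were sequenced, each from 1 ng of starting RNA per the labels. There was 1 group and no untreated one, so levels are described and no test was possible. The labels call the replicates biological but do not say how their cultures were kept apart.

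Hemoglobin is built from alpha-like and beta-like chains in equal number, each holding a heme. In mouse, Hba-x, Hbb-y and Hbb-bh1 serve the first red cells of the yolk sac. Hba-a1, Hba-a2, Hbb-bs and Hbb-bt serve the red cells that follow. GATA1, KLF1, the TAL1 complex and NF-Y are known to act on globin promoters and enhancers through GATA, CACCC, E-box and CCAAT sequences.

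The promoters are shown because the members differ in level by orders of magnitude while several carry the same short elements. The sequences are RefSeq promoters (build GRCm38.p6), each running 250 bases up to the base before the RefSeq start, 5′ to 3′ along the gene. Of the 10 members, 9 matched the promoter table, and Hbb-bh1 did not. Capitals mark matches on either strand. The GATA motif was AGATAA, also taken with T as its first letter or G as its last. The CACCC box was CCNCNCCC. The CCAAT box was the letters of its name. The TATA box was searched as TATAA. The variant that begins one base later, ATAAA, counted as well. The E-box was searched as CAGNTG.
Hbb-bs promoter, chr7:103827929-103828178, minus strand: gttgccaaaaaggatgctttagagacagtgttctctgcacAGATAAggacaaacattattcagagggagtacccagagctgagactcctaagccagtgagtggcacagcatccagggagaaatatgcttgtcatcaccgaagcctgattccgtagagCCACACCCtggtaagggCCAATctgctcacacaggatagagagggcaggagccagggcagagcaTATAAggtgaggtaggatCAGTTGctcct
Hbb-bt promoter, chr7:103813924-103814173, minus strand: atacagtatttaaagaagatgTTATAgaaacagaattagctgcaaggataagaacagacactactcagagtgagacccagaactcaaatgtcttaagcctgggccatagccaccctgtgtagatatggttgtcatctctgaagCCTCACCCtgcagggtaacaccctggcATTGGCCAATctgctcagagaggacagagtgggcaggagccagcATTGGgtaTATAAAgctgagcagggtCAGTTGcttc
Hba-a2 promoter, chr11:32296242-32296491, plus strand: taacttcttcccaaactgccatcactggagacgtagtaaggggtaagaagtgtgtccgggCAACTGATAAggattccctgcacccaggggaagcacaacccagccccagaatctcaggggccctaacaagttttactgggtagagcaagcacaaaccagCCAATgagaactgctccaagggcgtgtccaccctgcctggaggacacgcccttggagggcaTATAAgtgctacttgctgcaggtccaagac
Hbq1b promoter, chr11:32286714-32286963, plus strand: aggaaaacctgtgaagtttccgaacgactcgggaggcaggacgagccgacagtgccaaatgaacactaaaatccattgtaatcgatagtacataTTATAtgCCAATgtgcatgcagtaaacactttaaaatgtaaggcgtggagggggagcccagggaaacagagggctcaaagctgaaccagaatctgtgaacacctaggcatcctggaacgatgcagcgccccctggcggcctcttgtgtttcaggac
Hbb-y promoter, chr7:103853208-103853457, minus strand: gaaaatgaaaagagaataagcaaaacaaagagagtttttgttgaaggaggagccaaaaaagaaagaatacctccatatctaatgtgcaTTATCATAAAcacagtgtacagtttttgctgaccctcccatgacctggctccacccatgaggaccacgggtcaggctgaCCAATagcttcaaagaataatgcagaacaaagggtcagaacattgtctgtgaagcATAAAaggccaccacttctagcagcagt
These show Hbb-bs, the highest member, its copy Hbb-bt, the alpha gene Hba-a2, the low Hbq1b and Hbb-y, which had no read. The promoter of Hbb-bs held all 5 motifs: GATA at 210 bases before the start, the CACCC box at 93, CCAAT at 76, TATAA at 29 and an E-box at 11. Hbb-bt had its CACCC box at 107, 3 CCAAT matches at 80, 75 and 36, TATA box matches at 229, 28 and 27, the last pair overlapping, and an E-box at 10, with no GATA match in this window. Hba-a2 had GATA at 186, overlapping an E-box at 190, CCAAT at 91 and TATAA at 30. Hbb-y held a GATA match at 162 bases, CCAAT at 83 and TATA box matches at 157 and 28. It so shares these 3 elements with Hbb-bs and Hba-a2, but not GATA with Hbb-bt or Hbq1b, which were read too. Hbq1b held only CCAAT at 149 and a TATAA match at 156.

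Across the 9 members, GATA matches were in 6, CACCC boxes in 3, CCAAT in 7, TATA boxes in 8 and E-boxes in 4. Over 32851 RefSeq promoters of the same 250-base length, the shares holding each motif were 26.5% for GATA, 45.9% for the CACCC box, 33.9% for CCAAT, 43.0% for the TATA box and 44.8% for the E-box. TATAA and ATAAA overlap where TATAAA occurs. The only TATA box matches of Hbq1b and Hbb-bh2 lay at 156 and 165 bases before the start. Every other member with a TATA box match had one at 27 to 30 bases. A match describes letters and not a bound site, and the near copies named next were counted as separate members. The promoters of Hba-a1 and Hba-a2 carried the same 247 aligned bases without a mismatch, offset by a few bases of annotated start, and those of Hbq1b and Hbq1a were 95.6% identical. The promoters of Hbb-bs and Hbb-bt were 69.3% identical, with 65 mismatches.

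The coding sequences of each adult pair are almost the same, which bears on every value given per copy. Shown are 60-base stretches around the single difference in each pair, written in capitals, from the mm10 genome at GENCODE M21 coding exons.
Hbb-bs coding bases 382 to 441: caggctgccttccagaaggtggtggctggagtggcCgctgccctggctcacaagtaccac
Hbb-bt coding bases 382 to 441: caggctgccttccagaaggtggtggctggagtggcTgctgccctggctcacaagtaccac
Hba-a1 coding bases 351 to 410: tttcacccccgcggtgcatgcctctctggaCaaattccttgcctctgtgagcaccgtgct
Hba-a2 coding bases 351 to 410: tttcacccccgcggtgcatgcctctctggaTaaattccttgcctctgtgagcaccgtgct
Counted from 1 at the A of the start codon, the difference is C417T for Hbb-bs against Hbb-bt, over 441 coding bases, and C381T for Hba-a1 against Hba-a2, over 426. Both pairs were 99.8% identical in coding sequence. Over whole M21 transcripts, 65.8% of the 50-base windows of Hbb-bs also occurred in Hbb-bt, and 86.9% of those of Hba-a2 also occurred in Hba-a1. Hbq1b and Hbq1a were 93.8% identical, with 18 mismatches and 9 gap bases. Every other pair within a cluster was 58.8% to 76.4% identical and shared no 50-base window of coding sequence.

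Replicate 1 held 50277914 expected counts and replicate 2 held 47478888, and nuclear protein-coding genes took 14373925 and 13901316 of them. An expected count is an estimated number of reads, and TPM divides it by effective length and scales it to a fixed total over all entries listed. Nuclear protein-coding genes held 22.7% and 22.9% of TPM, so rescaling to these genes would raise every globin value 4.41-fold and 4.37-fold. Over 8281 such genes with at least 200 counts, chi-square per degree of freedom between the replicates was 7.83, more than counting noise gives, so they were not counted as 1 library deposited again.

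Of the 10 globin genes, 5 reached 1 TPM in each replicate: Hbb-bs, Hba-a2, Hba-a1, Hbb-bt and Hbq1b. Among the 21461 nuclear protein-coding genes 40.2% passed the same threshold, so the members' count is close to that background. Hbb-bh1 had reads but passed in replicate 1 only, and Hba-x, Hbq1a, Hbb-bh2 and Hbb-y had no read in either library. Adult genes of both clusters stood highest, and a theta gene and an embryonic gene averaged between 1 and 3 TPM.

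**Figure D1:**
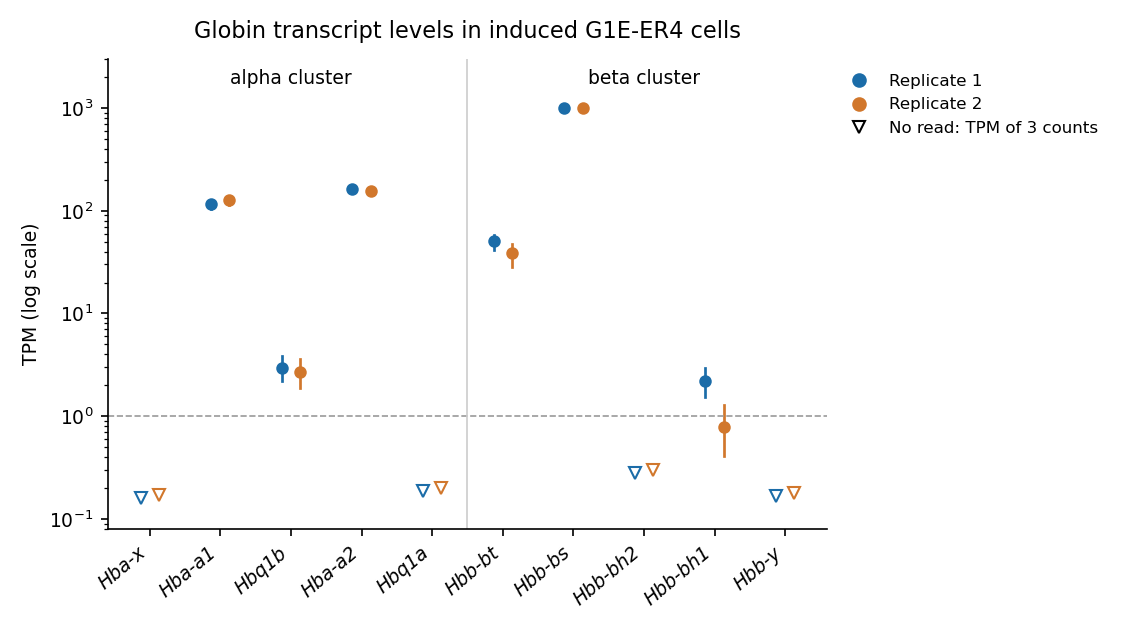
TPM (log scale) of the 10 globin genes in replicates 1 and 2, in chromosome order within each cluster, with the authors' deposited interval as a vertical line. Open triangles stand at the TPM that 3 counts would give for genes with no read, and the dashed line is a TPM of 1. Hbb-bs stands near 1001 TPM, above every other member.

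Hbb-bs (ENSMUSG00000052305.5; mm10, chr7:103826534-103828096, minus strand), an adult beta-globin gene, had 994 TPM in replicate 1 and 1008 TPM in replicate 2, from 14009 and 14450 counts. It ranked 11 of 21461 nuclear protein-coding genes by mean TPM, next to Ptma (1012 ± 78.1), which encodes prothymosin alpha, and the ribosomal protein gene Rpl10 (861 ± 43.4, SD, n = 2). In bulk RNA, a smaller share of expressing cells and less RNA per cell cannot be told apart, here or for any member. The authors' deposited TPM intervals, whose level is not stated, were 949 to 993 and 958 to 1006. Each surrounds a deposited posterior mean (971 and 982) that lies below the TPM itself.

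Hbb-bt (ENSMUSG00000073940.3; chr7:103812524-103813996, minus strand), the other adult beta-globin gene, had 50.9 TPM in replicate 1 and 38.5 TPM in replicate 2, a mean of 44.7 ± 8.70 (SD, n = 2). Its counts were 979.25 and 700.76. The replicates stood apart, but the deposited intervals, 41.6 to 57.9 and 28.3 to 47.1 TPM, overlap. It ranked 907, between Bzw2 and Nt5dc2, at 44.8 ± 1.91 and 44.6 ± 3.68 TPM.

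Hba-a2 (ENSMUSG00000069917.7; chr11:32296489-32297298, plus strand), an adult alpha-globin gene, had 162 TPM in replicate 1 and 157 TPM in replicate 2, from 2329.6 and 2115.8 counts. It ranked 186, beside the transferrin receptor gene Tfrc (159.9 ± 6.07) and Hnrnpab (159.1 ± 15.1, SD, n = 2), an RNA-binding protein gene. Hba-a1 (ENSMUSG00000069919.7; chr11:32283511-32284465, plus strand), the second adult copy, had 116 TPM in replicate 1 and 126 TPM in replicate 2, from 2009.4 and 2077.2 counts. It ranked 262, between Oaz1, the ornithine decarboxylase antizyme gene, at 122 ± 2.62 and Atp5h, an ATP synthase subunit gene, at 121 ± 6.63. The copies moved in opposite directions between the libraries, and their TPM ranges did not overlap.

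Hbq1b (ENSMUSG00000073063.3; chr11:32286965-32287784, plus strand) is a theta-globin gene, an alpha-like gene with no established part in hemoglobin. It had 2.96 TPM in replicate 1 and 2.69 TPM in replicate 2, from 54 and 38 counts. At a mean of 2.83 ± 0.191 (SD, n = 2) it ranked 7525, level with H2al1k and Kcnn4, which had the same mean TPM. Its counterpart Hbq1a (chr11:32300069-32300873) had no read, where 3 counts would have been 0.188 TPM in replicate 1 and 0.199 TPM in replicate 2. Although their coding sequences are close, the counting gave every read of the pair to Hbq1b.

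Hbb-bh1 (ENSMUSG00000052217.5; chr7:103841637-103843164, minus strand), an embryonic beta-like gene, had 2.21 TPM in replicate 1 and 0.78 TPM in replicate 2, from 36 and 12 counts. Its deposited intervals, 1.52 to 2.94 and 0.407 to 1.28 TPM, do not overlap. The log2 ratio of replicate 2 over replicate 1 was -1.39 with a pseudocount of 0.1. It shares no 50-base window of coding sequence with any other member of its cluster, and its deposited posterior SD of the count was 0, so none of its reads was divided with another gene.

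The remaining embryonic genes had no read. For Hba-x, the alpha-like chain of the embryo (chr11:32276400-32278116), a count of 3 would be 0.159 TPM in replicate 1 and 0.169 TPM in replicate 2. For Hbb-y, the epsilon-like chain of the embryo (chr7:103851749-103853216), the same limits were 0.168 and 0.178 TPM. For Hbb-bh2 (chr7:103839124-103840520), a beta-like gene between Hbb-bs and Hbb-bh1, they were 0.280 and 0.298 TPM. Levels up to these limits cannot be told from 0 where no read is seen, and the limits cover counting error only.

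In order of mean TPM the 6 genes with reads ran Hbb-bs, Hba-a2, Hba-a1, Hbb-bt, Hbq1b and Hbb-bh1. No neighbours in that order overlapped in their TPM values over the 2 replicates. The deposited intervals of the last pair did overlap, at 1.885 to 3.58 TPM for Hbq1b in replicate 2 and 1.52 to 2.94 TPM for Hbb-bh1 in replicate 1. By counts, Hba-a2 and Hba-a1 stood at 2115.8 and 2077.2 in replicate 2, each with a deposited posterior SD of 57.63. Hbb-bs stood 6.28 times above Hba-a2, Hba-a2 1.32 times above Hba-a1, Hba-a1 2.71 times above Hbb-bt and Hbb-bt 15.8 times above Hbq1b. The narrowest gap was between Hbq1b, at 2.69 TPM or more, and Hbb-bh1, at 2.21 TPM or less. Adult genes thus took the first 4 places.

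Summed copies varied less than single ones. Hbb-bs and Hbb-bt together had 1045 TPM in replicate 1 and 1047 TPM in replicate 2, and Hba-a1 and Hba-a2 together had 278 and 283 TPM. By TPM, log2 ratios of replicate 2 over replicate 1 were 0.00 for the beta sum and 0.02 for the alpha sum. Those of single copies were -0.40 for Hbb-bt, 0.13 for Hba-a1, -0.05 for Hba-a2 and 0.02 for Hbb-bs. By counts scaled for library size (TMM), the sums gave 0.06 and -0.0026. Single copies then gave -0.44 for Hbb-bt, 0.09 for Hba-a1, -0.09 for Hba-a2 and 0.09 for Hbb-bs. The effective length of Hbb-bs, which follows the mix of its transcripts, was 427 nt in replicate 1 and 457 nt in replicate 2. All 10 genes summed to 1328 TPM in replicate 1 and 1333 TPM in replicate 2, from 19417 and 19394 counts. Within that total Hbb-bs held 75.2% ± 0.559 and the alpha cluster 21.3% ± 0.181 of TPM (SD, n = 2).

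**Figure D2:**
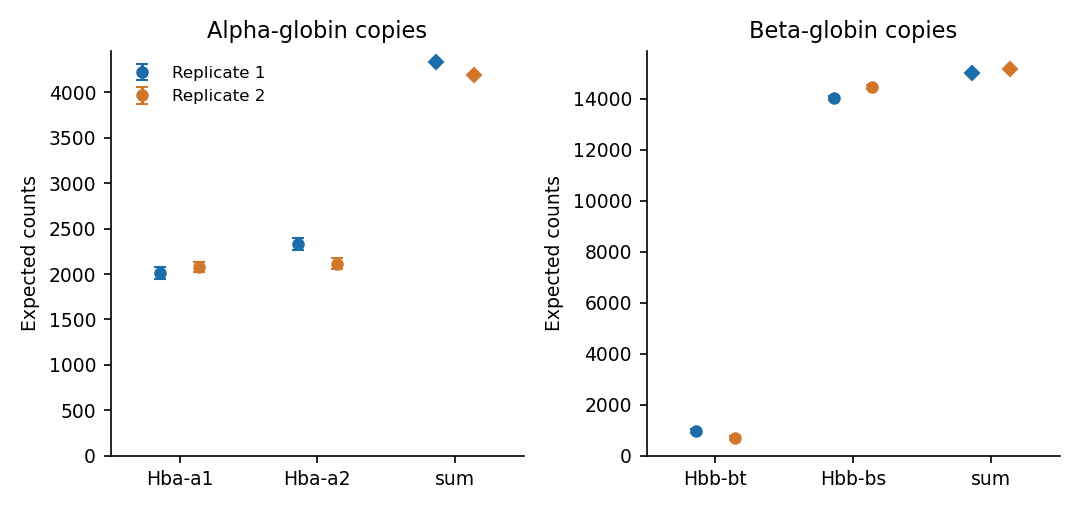
Expected counts of Hba-a1, Hba-a2 and their sum, and of Hbb-bt, Hbb-bs and their sum, in replicates 1 and 2. Vertical bars on single copies are the deposited posterior SD of the count, and the sums (diamonds) carry none. Hba-a1 and Hba-a2 have 2009.4 and 2329.6 counts in replicate 1, with a posterior SD of 64.79 each. In replicate 2 they have 2077.2 and 2115.8 counts, with a posterior SD of 57.63 each. Their sums are 4339 and 4193 counts.

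The quantifier's own uncertainty was shared within each pair. The deposited posterior SD was 75.04 counts for both Hbb-bs and Hbb-bt in replicate 1 and 87.01 counts for both in replicate 2. For both Hba-a1 and Hba-a2 it was 64.79 and 57.63 counts. For Hbq1a and Hbq1b it was 0.82 and 0.59 counts. Within each pair the values were equal, and the reads behind them were not used here.

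Hbb-bt took 6.53% of the pair's counts in replicate 1 (exact 95% interval 6.14 to 6.94%) and 4.63% in replicate 2 (4.30 to 4.97%). Hba-a1 took 46.3% of its pair in replicate 1 (44.8 to 47.8%) and 49.5% in replicate 2 (48.0 to 51.1%). For Hbb-bt the intervals do not meet, and for Hba-a1 they miss each other by a fraction of a point. Both cover counting error only and not the division of shared reads. Mouse strains carry different forms of the adult beta pair, and the form carried by this line was not checked.

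Per length, Hba-a1 over Hba-a2 was 0.712 in replicate 1 and 0.806 in replicate 2. By counts it was 0.863 and 0.982, nearer to equal. The gap between scales comes from length: Hba-a1 was divided by 646 nt in replicate 1 and 648 nt in replicate 2, and Hba-a2 by 554 nt, before the shortening to effective length. The annotated first exon of Hba-a1-201 begins 161 bases before the RefSeq start of the gene, and that of Hba-a2-201 begins 3 bases before.

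Adult alpha over adult beta globin was 0.266 in replicate 1 and 0.270 in replicate 2 by gene TPM. Both libraries thus listed less alpha than beta RNA. The value depends on which transcripts enter the sums, as the transcript tables show. With only transcripts that GENCODE M21 calls protein-coding it was 0.402 and 0.397. With only Hba-a1-201, Hba-a2-201, Hbb-bs-201 and Hbb-bt-201, the first-numbered transcripts, a choice made after the data were seen, it was 0.951 and 0.717 by TPM and 0.716 and 0.539 by counts. Every one of these values was below 1.

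**Figure D3:**
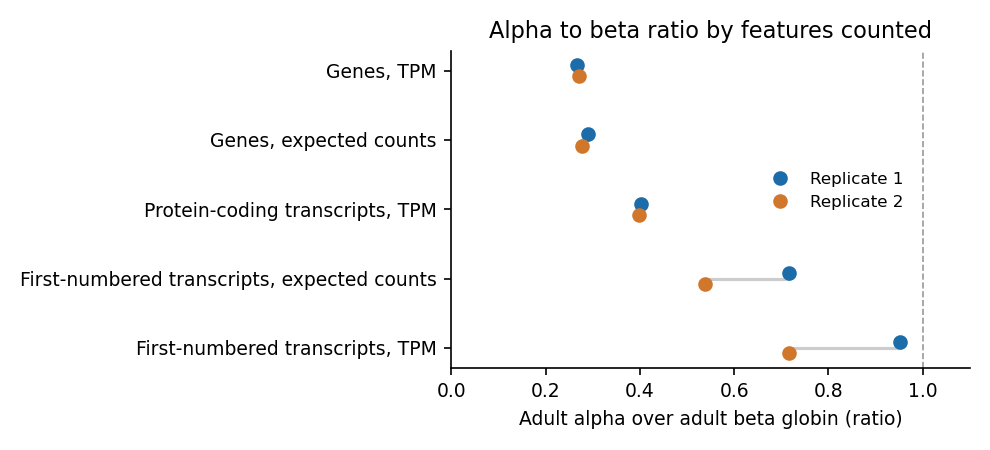
Adult alpha-globin sum over adult beta-globin sum (ratio, x axis) in replicates 1 and 2, by the features summed. The dashed line marks equal sums. Genes by TPM give 0.266 and 0.270, and first-numbered transcripts by TPM give 0.951 and 0.717.

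Hbb-bs was the member whose reads were spread most over transcripts. Hbb-bs-201, which holds the whole coding sequence, had 210 TPM in replicate 1 and 312 TPM in replicate 2, or 21.1% and 30.9% of the gene. Hbb-bs-202, a transcript of the retained-intron class in M21, had 427 TPM in replicate 1 and 414 TPM in replicate 2, or 43.0% and 41.1%. Hbb-bs-203, annotated as protein-coding, had 356 TPM in replicate 1 and 282 TPM in replicate 2, or 35.9% and 27.98%. The gene total was thus steadier than its parts: intervals of Hbb-bs-201 (192 to 219 and 288 to 319 TPM) and Hbb-bs-203 (328 to 368 and 254 to 297 TPM) did not overlap between replicates.

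The first exon of Hbb-bs-203 lies at chr7:103828012-103828096, from 168 to 84 bases before the RefSeq start. It covers the CACCC box printed above and ends short of the CCAAT and TATAA matches. It received 3384 and 2513 counts as a whole transcript, and how many of those lie in that exon cannot be read from the tables. The tables' lengths of Hbb-bs-201 and Hbb-bs-202, 778 and 549 nt, differ from the 628 and 344 nt of M21, so the class given here is that of a later model. Of the 16 transcripts listed for the 10 genes, 11 had the same length in both, and 10 had counts.

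Hba-a1 gave 74.2% of its TPM in replicate 1 and 74.9% in replicate 2 to the coding transcript Hba-a1-201. The retained-intron transcript Hba-a1-202 held the rest, 29.9 TPM in replicate 1 and 31.7 TPM in replicate 2, from 369.3 and 368.2 counts. The matching transcript of the other copy, Hba-a2-202, was listed at 0 in both, and Hba-a2-201 held all of that gene. The sister copies thus differed in the same class of transcript while their coding sequences differ at a single base, and how reads of either copy were assigned was not tested.

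Hbq1b turned over between replicates. Hbq1b-201, its coding transcript, had 0.37 TPM in replicate 1 and 2.43 TPM in replicate 2, from 5.4 and 33.44 counts. Hbq1b-202, of the retained-intron class, had 2.59 TPM in replicate 1 and 0.26 TPM in replicate 2, from 48.6 and 4.56 counts. Each library thus named a different leading transcript for the gene. Its total moved little by TPM, with a log2 ratio of replicate 2 over replicate 1 of -0.13. Its counts were 54 and 38, and after TMM scaling they gave -0.46. The gene's effective length, which follows the mix of its transcripts, was 554 nt in replicate 1 and 451 nt in replicate 2. The TPM total is therefore not independent of the change of transcript. Of 3818 detected genes with a retained-intron transcript, 17 (0.445%) had that share 50 points or more apart between replicates, and Hbq1b was among them.

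Over those 3818 genes the median share of TPM in retained-intron transcripts was 18.6%. Hbb-bs, at 42.1% ± 1.34, stood above 82.2% of them, and Hba-a1, at 25.4% ± 0.547, above 61.8% (SD, n = 2). Hba-a2, at 0, stood above none. The labels give total RNA as the material, with no group of another kind to compare.

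**Figure D4:**
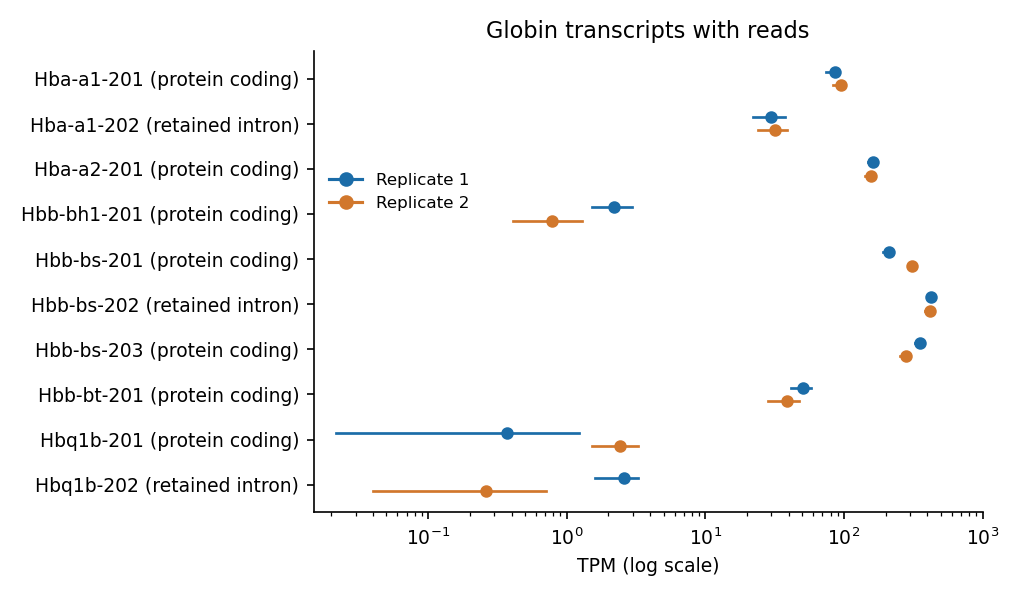
TPM (log scale) of the 10 globin transcripts with reads in replicates 1 and 2, with the class GENCODE M21 gives each and the authors' deposited interval as a horizontal line. Hbb-bs-201 and Hbb-bs-203 differ between replicates in opposite directions, and Hbq1b-201 and Hbq1b-202 change places.

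Within 100 kb of the alpha cluster, 3 of 7 annotated genes were detected. The 3 were among the 6 protein-coding ones, where 40.2% of all nuclear protein-coding genes were detected. Of the 7, 6 lie on the Hba-x side, the detected ones among them. Nprl3, whose introns hold the known alpha-globin enhancers, had 15.4 TPM in replicate 1 and 11.9 TPM in replicate 2. The RNA-splicing gene Snrnp25 had 4.15 ± 1.09 TPM and the DNA glycosylase gene Mpg 3.85 ± 0.559 TPM (SD, n = 2). Each was under Hba-a1, the nearest adult gene, and Sh3pxd2b, the only one on the other side, had no read.

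Around the beta cluster, none of 16 annotated genes was detected, and 14 had no read. The 12 protein-coding ones, the only ones to set beside the 40.2%, are all olfactory receptor genes. Of these, 11 had no read and Olfr67 had 1 count in replicate 2. The globin pseudogenes Hbb-bh3 and Hbb-bh0, which lie between the members, had no read. The pseudogene Dnajc19-ps had 0.79 TPM in replicate 1 and 0.71 TPM in replicate 2. Among annotated genes at this locus, reads thus fell mainly on Hbb-bs, Hbb-bt and Hbb-bh1.

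**Figure D5:**
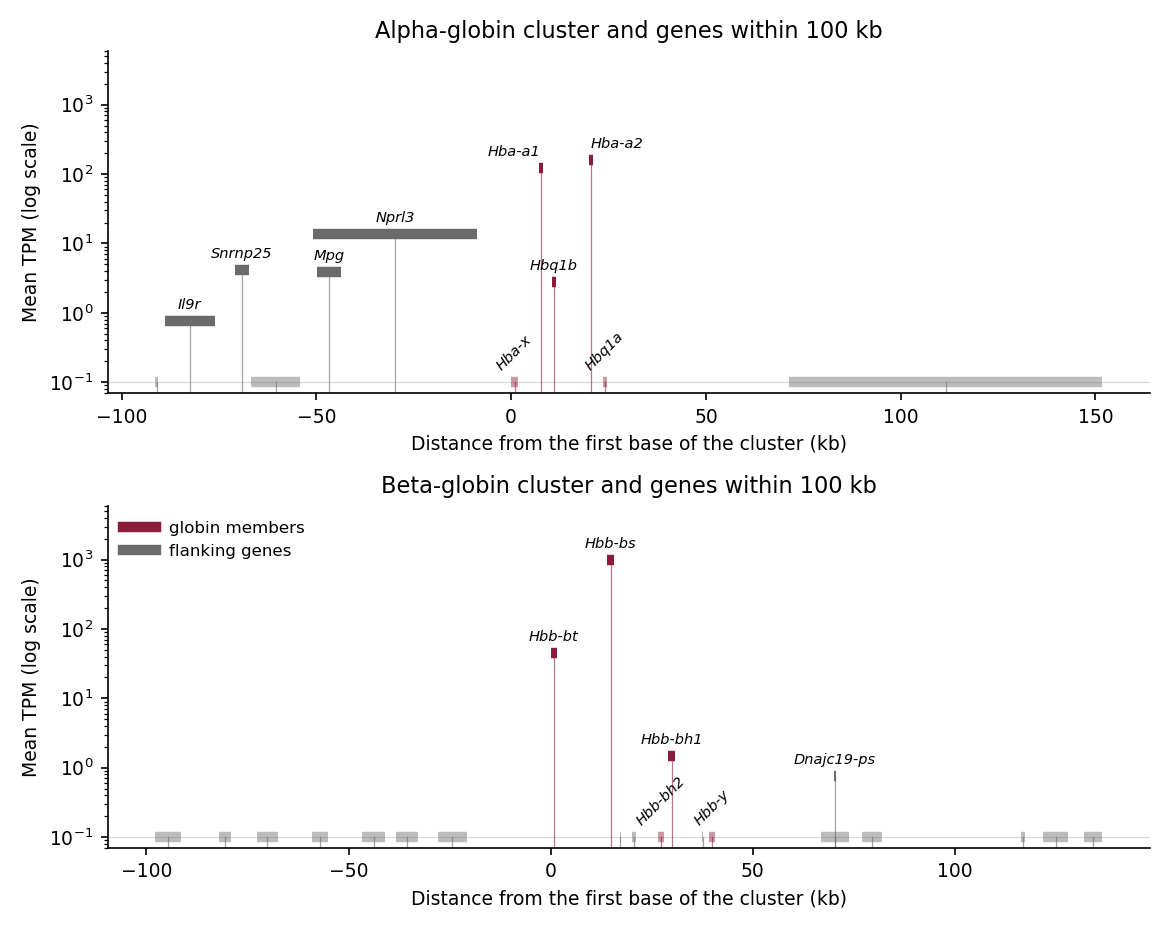
Mean TPM of 2 replicates (log scale) of globin genes and genes within 100 kb, against distance from the first base of each cluster (kb). Bars span gene bodies, and pale bars on the line at 0.1 have a mean TPM below 0.1 or no read. The alpha cluster has 3 detected neighbours among 7 genes, 6 of which are annotated on the Hba-x side, and the beta cluster has none among 16.

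The rest of the globin family was close to absent. Of 8 listed relatives 7 were matched, and none was detected: the myoglobin gene Mb, Cygb, Adgb, Hba-ps4, Hbb-bh0 and Hbb-bh3 had no read, and the neuroglobin gene Ngb had 1 count in replicate 2. Hba-ps3 was not analysed here.

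Of 18 genes listed as globin regulators and partners, 17 were matched and all 17 were detected, with a median of 37.9 TPM, where 40.2% of nuclear protein-coding genes were detected. The highest were Gfi1b, a repressor that GATA1 activates (122 ± 0.424), Myb, a progenitor transcription factor (105 ± 8.73), Atrx, a chromatin remodeller whose loss lowers alpha-globin in humans (85.6 ± 2.02), and Lmo2, the bridge of the TAL1 complex (81.9 ± 1.03). The lowest were Lin28b, an RNA-binding protein of fetal cells (4.29 ± 0.834), and Sox6, which represses embryonic beta-like genes in mouse (1.18 ± 0.0990, SD, n = 2 for each). Gata1 itself had 57.6 TPM in replicate 1 and 65.7 TPM in replicate 2, and the tables do not separate the restored copy from the line's own locus. Klf1, which acts at CACCC boxes, had 24.8 and 29.0 TPM. Ahsp, the chaperone of free alpha chains, was not analysed here.

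Among the marker lists, the erythroid one had the highest sum. All 9 matched erythroid markers of 10 listed were detected, where 40.2% of nuclear protein-coding genes were. Gata1, which was put back in this line, is one of the 9. Gata1, Klf1 and Gfi1b also stand in the regulator list above. The summed level of the 9 markers was 514 TPM in replicate 1 and 520 TPM in replicate 2. Tfrc (159.9 ± 6.07), Gfi1b (122 ± 0.424) and Rhag (92.5 ± 0.820) led it. Alas2 (10.7 ± 0.141), Epor (8.955 ± 0.0212) and Slc4a1 (3.21 ± 0.156) had lower means than the mast cell marker Cpa3 (27.4 ± 0.912) and the megakaryocyte marker Pf4 (14.75 ± 5.95, SD, n = 2). Of 6 megakaryocyte markers 4 were detected, with sums of 33.3 and 24.9 TPM, led by Pf4 at 19.0 and 10.5 TPM. Of 6 mast cell and basophil markers 2 were detected, with sums of 29.6 and 31.1 TPM, nearly all from Cpa3. Of 8 granulocyte and macrophage markers none was detected in both replicates, with sums of 1.23 and 4.35 TPM. Cd68 had 0.90 TPM in replicate 1 and 2.08 TPM in replicate 2, and Mpo had 0.06 and 1.29 TPM. Both thus passed 1 TPM in replicate 2 only. Elane had 0 and 17 counts, Lyz2 had 10 and 6 counts, and Csf1r and S100a8 were at 0. Of 6 T and B cell markers 5 had no read, and Cd3g had 4 counts in each library. The granulocyte and macrophage sum was higher in replicate 2 and the megakaryocyte sum was higher in replicate 1, as was Hbb-bh1, and their part in that difference was not tested.

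Of the 6 globin genes averaging at least 1 TPM, only Hbb-bh1 lay 2-fold or more apart between replicates. Over 10041 genes of every class past the same filter 4.73% did, and of the 8808 nuclear protein-coding genes past it 172 did. The median absolute log2 ratio was 0.13 over the 6 globins, 0.16 over the 8808 nuclear protein-coding genes and 0.18 over all 10041 genes. Embryonic counts were 0.240% of the beta cluster's counts in replicate 1 (exact 95% interval 0.168 to 0.332%) and 0.0791% in replicate 2 (0.0409 to 0.138%). These intervals do not overlap, and all embryonic counts were from Hbb-bh1.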

How the data were processed

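Total RNA-seq of 2 biological replicates was analysed from deposited gene and transcript tables. The reads had been placed on mm10, per the labels, with annotation M4, per the deposited documentation. Column names match RSEM output. The aligner, the quantifier version and any strand setting were not given in the sources used here. Expected counts, as deposited, are the authors' estimates of reads, divided among repeated sequences. Deposited TPM and FPKM were scaled by the authors per effective length and depth, TPM over all listed entries. Deposited transcript shares give, in percent, the part of a gene's TPM that the authors assigned to each transcript. The deposited interval bounds and posterior SD of counts were entered as signal values of the authors' quantifier.

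Genes were named by identifier from GENCODE M21 (mm10), which matched 42462 Ensembl genes. Members and gene lists were chosen with earlier results of these data known. Named genes were the 10 members, the 4 highest and 2 lowest regulators and any with no read, detected flanking genes within 100 kb and the neighbours in rank of detected members. Gata1, Klf1 and other genes given by name come from the marker lists or were chosen after their values were seen. A gene was called detected when each replicate reached 1 TPM. For log2 ratios 0.1 was added to each TPM, which shrinks the ratio of low genes. Shares of rounded counts carry exact Clopper-Pearson 95% intervals, and floors of 3 counts were taken per library. Reads had no molecular identifiers, so both cover counting error only. The 2-fold rule for TPM ratios between replicates was checked on counts simulated with counting noise only, for genes with at least 50 counts. That check does not cover the wider spread between these replicates or a gene with as few counts as Hbb-bh1. Coding sequences and promoters were compared by global alignment in Biopython 1.88, the first in place of a planned comparison of proteins, and transcripts by shared 50-base windows. Alternatives used edgeR 4.0.16 (TMM) and DESeq2 1.42.0 size factors on expected counts rounded to whole numbers in R 4.3.3. Tables were handled in Python 3.11.15 with scipy 1.17.1, numpy 2.4.6 and pandas 2.3.3, and plots drawn with matplotlib 3.10.9. No p-value was computed.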

Additional observations from a re-analysis of the deposited data

How the results depend on the processing

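Among 47 alternatives for the main values, 34 stayed within the replicate spread or the limit set for counts of genes and 13 moved. Some of the 34 were fixed in advance. For ratios and shares, either of 2 replicates always lies within 1 SD of their mean. FPKM ratios within a library repeat those of TPM apart from rounding. These alternatives thus say nothing on stability. By expected counts, adult alpha over beta was 0.283 (0.268 by TPM), Hbb-bt over Hbb-bs 0.0592 (0.0447), Hba-a1 over Hba-a2 0.922 (0.759), the alpha-like share of the 10 globins 22.2% (21.3%), the Hbb-bs share 73.3% (75.2%) and the globin share of nuclear protein-coding genes 0.137% (0.584%). That last share was 0.574% by posterior mean TPM and 0.133% over all listed entries. Alpha over beta was 0.834 by TPM and 0.627 by counts with first-numbered transcripts only, and 0.400 by TPM with protein-coding transcripts, all 3 chosen after seeing the data. Genes at least 2-fold apart numbered 98 when filtered at a mean of 5 TPM and 2024 without a filter, against 475. Leaving out each replicate gave 0.266 to 0.270 for alpha over beta, 0.0382 to 0.0512 for Hbb-bt over Hbb-bs, 0.712 to 0.806 for Hba-a1 over Hba-a2, 0.0744 to 0.211% for the embryonic share, 21.2 to 21.4% for the alpha-like share, 74.8 to 75.6% for the Hbb-bs share, 0.583 to 0.586% for the globin share, and 5 to 6 genes detected. Other thresholds gave 4 to 6. With a pseudocount of 1 the log2 ratio of Hbb-bh1 was -0.85, within 2-fold. Of 69 alternatives for ranks, transcript shares and log2 ratios of single members and sums, 14 moved. They were 6 log2 ratios of Hbb-bs, the beta sum and all 10 globins under TMM or DESeq2 scaling (0.04 to 0.09), the share of Hba-a1-201 by counts (81.95%), and 7 ranks: Hbb-bs 10 without replicate 2, and by counts Hbb-bs 82, Hba-a2 1580, Hba-a1 1718, Hbb-bt 3805, Hbq1b 8957 and Hbb-bh1 9351. Counts, unlike TPM, are not divided by effective length, which sets the ranks and the share by counts apart. Why the other values moved was not tested. No paired analysis was possible because there is 1 group. Hbb-bh1 rests on 36 and 12 counts, and 4 members with no read are limited by depth.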
